A study of Mus musculus with 2 samples.

Results

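Endoplasmic-reticulum-associated degradation (ERAD) was followed through 31 genes, chosen by name for their known roles, among the 32285 features of single-cell count tables of mouse pancreatic islets. All 31 were found in both tables, and they were chosen with earlier results of these data known. Islets came from 12-week-old female mice on a C57BL/6 background. One library was made from Spop fl/fl mice, the floxed controls, and 1 from SpopβKO mice, in which Spop, the substrate adaptor of a ubiquitin ligase, was to be deleted in beta cells. The Cre driver, the deleted exons, the number of mice pooled and whether the controls carried Cre are not given in the sources used here. The islets had recovered in culture medium before they were dispersed and captured with 10x Genomics 3′ chemistry. There was 1 library per genotype, cells of a library are not replicates, and so no test between genotypes was possible. Each 95% interval covers counting error only, and a difference between the libraries cannot be told apart from a difference between islet preparations.

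There were 7768 barcodes and 82541585 unique molecular identifiers (UMIs) in the control table and 10033 barcodes and 89977773 UMIs in the one labelled knockout. A minimum of 500 genes per cell and a maximum of 15% mitochondrial UMIs left 6850 and 8842 cells. Cells were grouped by their leading hormone, which had to reach 2% of the cell's UMIs and 3 times the next hormone. This gave 3150 and 6583 insulin-led cells, 1636 and 917 glucagon-led cells, and 98 and 93 polypeptide-led cells. Somatostatin-led cells, 5 and 4, were too few to describe. A further 374 and 501 cells had mixed hormones and were left out with any doublets among them, since no doublet caller was run. Cells with no leading hormone, 1587 and 744, were also left out. Only 21 barcodes occurred in both libraries. In insulin-led cells the summed level of 8 beta cell markers was 17128 in the control library and 28874 in the other, against 12.4 and 109 for 7 macrophage markers and 5.75 and 41.5 for 9 acinar markers. Other lists stood higher. Alpha cell markers summed to 3994 and 3129, polypeptide cell markers to 1069 and 1829, duct markers to 264 and 470 and delta cell markers to 251 and 290. The part of such RNA in the member levels was not tested. Each level is a number of UMIs per 1000000 UMIs outside 7 hormone genes (CPM), scaled by the trimmed mean of M-values (TMM). Spop stood at 74.5 CPM in control and 95.8 CPM in labelled knockout insulin-led cells, a log2 ratio of 0.36 (0.29 to 0.43). In glucagon-led cells the ratio was 0.04 (−0.12 to 0.19). Its 3′ counts were thus higher, not lower, in insulin-led cells of the library labelled knockout and did not check the label. A tag outside the deleted exons would not be lost, and the cause of the higher counts was not tested.

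ERAD removes misfolded proteins from the endoplasmic reticulum. Mannosidases and lectins mark and recognise the client, a channel and ligase complex built on SEL1L and HRD1 (encoded by Syvn1) passes it through the membrane and attaches ubiquitin, and the ATPase p97 (encoded by Vcp) pulls it into the cytosol for the proteasome. Beta cells fold large amounts of proinsulin, and ERAD genes are known targets of the unfolded protein response (UPR), whose branches run through IRE1 with XBP1, ATF6, and PERK with ATF4 and CHOP (encoded by Ddit3).

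The promoters of Ube2j1 and Vcp carry one of the sequence elements known from UPR target genes, and they are shown here because the results below set the members beside Hspa5 and Ddit3, which encode a chaperone and a factor of that response. RefSeq promoter windows of 300 bases on GRCm38.p6 were matched for 25 of 31 members. The core of the unfolded protein response element, TGACGTGG on either strand, was in 0.676% of 32851 promoters and in those of Ube2j1 and Vcp. Targets of the response, Herpud1 and Syvn1 among them, are known to carry longer endoplasmic reticulum stress elements as well; matches to those are not reported here, so the promoters shown are not the only ones of members with such an element. The cyclic AMP response element TGACGTCA was in 1.79% of promoters and TGATGNAAT, a form of the CHOP and ATF4 site, in 0.965%, and neither was in the window of any matched member. The motif TGACGTGG shares its first 6 letters with TGACGTCA, and a match is a description of the letters and not of binding. Capitals mark the matched element in the strand of the gene, and positions count from the RefSeq start.
Ube2j1, chr4:33031282-33031349, plus strand, element at −68 to −61 in reverse: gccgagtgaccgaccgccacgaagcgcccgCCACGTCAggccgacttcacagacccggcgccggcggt
Vcp, chr4:43000584-43000651, minus strand, element at −114 to −107: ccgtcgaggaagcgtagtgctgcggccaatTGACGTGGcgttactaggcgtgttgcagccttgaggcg

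Most of the measured ERAD genes were higher in insulin-led than in glucagon-led cells within each library, and none was lower. A gene counted as measured at a mean of at least 10 CPM over both sides, which 30 of 31 members reached, and as higher or lower where one level was at least 25% above the other, a log2 ratio of 0.32, with an interval that excluded no difference. In the control library 19 members were higher in insulin-led cells, where 31.2% of all measured features were, and 0 were lower, against 19.8%. In the library labelled knockout 17 were higher, against 26.8%, and 0 lower, against 16.7%. The median log2 difference of the members was 0.44 (0.24 to 0.67) in control and 0.38 (0.22 to 0.52) in the other library, against 0.10 and 0.07 over all measured features. Both libraries shared 16 higher members, among them 4 of 4 of the conjugation group. The share of all features higher in both libraries was not counted. Of 32 proteasome subunits, 21 were higher in insulin-led control cells and 0 lower, with 5 and 1 in the library labelled knockout. Glucagon-led cells also held insulin UMIs, a median of 0.281% of their UMIs in control and 0.977% in the other library, and the part of such RNA in their member levels was not tested.

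**Figure D1:**
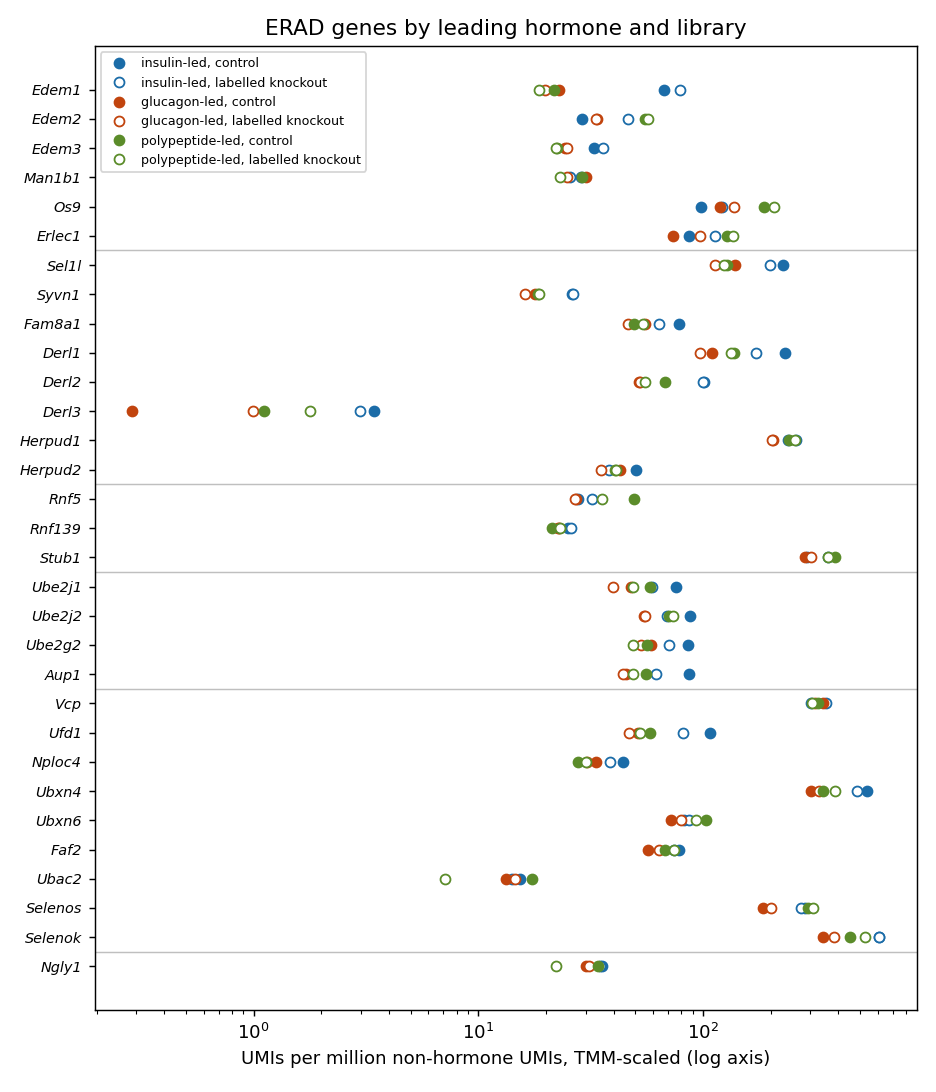
Levels of the 31 ERAD genes, grouped by role from recognition (top) to deglycosylation (bottom), in insulin-led, glucagon-led and polypeptide-led cells of the control library (filled) and the library labelled knockout (open). The axis is TMM-scaled CPM on a log scale. The blue points of Edem1, Derl1, Derl2 and Sel1l lie to the right of the orange ones in both libraries, and Derl3 lies far below the others' range.

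Edem1, which trims mannose from misfolded glycoproteins, had the largest of these differences among the measured members. It stood at 67.1 CPM in insulin-led and 22.8 CPM in glucagon-led control cells, a log2 difference of 1.56 (1.39 to 1.73). In the library labelled knockout the levels were 79.1 and 19.8 CPM, a difference of 2.0 (1.74 to 2.27). Both insulin-led values thus lay above both glucagon-led values, and the polypeptide-led values of 21.8 and 18.6 CPM lay with the glucagon-led ones. Derl1 and Derl2 encode derlins, membrane proteins of the channel. Derl1 was at 232 and 173 CPM in insulin-led cells of the control and labelled knockout libraries and at 110 and 96.8 CPM in glucagon-led cells. Derl2 was at 101 and 100 CPM against 51.7 and 52.6 CPM. As for Edem1, both insulin-led values of either gene lay above both glucagon-led values. The share of all features for which this holds was not counted. Sel1l, the scaffold that joins clients to the HRD1 ligase, was at 226 and 198 CPM against 139 and 113 CPM. Ufd1, which with NPLOC4 adapts p97 to ubiquitin chains, was at 108 and 81.1 CPM against 51.3 and 46.8 CPM. Selenok, a selenoprotein that recruits p97 to the membrane, was at 608 CPM in insulin-led cells of both libraries, at 343 and 383 CPM in glucagon-led cells, and at 451 and 529 CPM in polypeptide-led cells.

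The recognition group did not move as one. Beside Edem1, its member Edem3 was higher in insulin-led cells in both libraries, at 32.6 and 35.8 CPM against 24.3 and 24.9 CPM. Os9, a lectin that hands glycoproteins to SEL1L, gave log2 differences of −0.29 (−0.37 to −0.20) and −0.17 (−0.27 to −0.06), short of the 25% limit. It stood at 187 and 208 CPM in polypeptide-led cells, above its 97.6 and 122 CPM in insulin-led and 119 and 137 CPM in glucagon-led cells. Edem2, which starts the trimming of mannose, was at 28.8 CPM in insulin-led and 33.6 CPM in glucagon-led control cells and at 46.5 and 33.5 CPM in the library labelled knockout. Vcp was close to level between the classes, with log2 differences of −0.19 (−0.24 to −0.14) and 0.16 (0.09 to 0.22). Derl3, the remaining derlin, was not measured by the rule. Its 108 and 159 UMIs in insulin-led cells gave 3.45 and 2.97 CPM, and its 4 and 6 UMIs in glucagon-led cells gave 0.287 and 0.989 CPM. Over the 30 measured members the class differences of the 2 libraries had a Pearson r of 0.82, across genes that are not independent replicates. The same correlation over all features was not computed.

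Between the libraries, recognition genes and conjugation genes of insulin-led cells had ratios mostly on different sides of 0. Of 30 measured members 2 were higher in the library labelled knockout, where 17.6% of all measured features were, and 6 were lower, against 17.4%. The share of higher members, 6.67%, was below the background, and that of lower members, 20%, was near it. This count depended on how cells were weighted: with each cell weighted equally, 12 members were lower, against 23.4% of measured features, and the median was −0.25 (−0.34 to −0.08). Macrophage and acinar markers were higher in insulin-led cells of the library labelled knockout, as given above. Without cells that held non-endocrine markers, 3 members were higher and 6 lower, against 18% and 17.1% of measured features. The members' median log2 ratio was −0.10 (−0.19 to 0.01), against −0.04 over all measured features. By role, 5 of 6 recognition genes had ratios above 0 with a median of 0.28. In the channel and ligase core 6 of 7 measured genes had ratios below 0, with a median of −0.19. All 4 of 4 conjugation genes had ratios below 0, with a median of −0.35. Of all 8837 measured features, 4009 had ratios above 0 and 4828 below 0. The other ligases and the extraction group had medians of 0.05 and −0.07.

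Among recognition genes, Edem2 (mm10 chr2:155701677-155729475) rose from 28.8 CPM in the control to 46.5 CPM in the labelled knockout library, a log2 ratio of 0.69 (0.58 to 0.80). Erlec1 (chr11:30930774-30954335), a lectin of the SEL1L complex like OS9, rose from 86.5 to 113 CPM, a ratio of 0.38 (0.32 to 0.45). Os9 itself went from 97.6 to 122 CPM and fell just short of the 25% limit, at 0.32 (0.26 to 0.38). Edem1 was at 0.24 (0.16 to 0.31) and Edem3 at 0.14 (0.03 to 0.25). Man1b1, another mannosidase, was at −0.16 (−0.28 to −0.04), the only recognition gene with a ratio below 0.

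In the channel and ligase core, Derl1 (chr15:57869502-57892448) fell from 232 to 173 CPM, a log2 ratio of −0.43 (−0.47 to −0.38). Herpud2 (chr9:25108132-25151820), a relative of the HRD1 complex member HERPUD1, fell from 50.4 to 38.1 CPM, a ratio of −0.40 (−0.50 to −0.31). Fam8a1, which helps assemble the HRD1 complex, was at −0.29 (−0.37 to −0.21), just inside the limit, and Sel1l was at −0.19 (−0.24 to −0.15). The ratios of Syvn1 and Derl2 were 0.01 (−0.11 to 0.14) and −0.01 (−0.08 to 0.05). Herpud1, a partner of the HRD1 complex that the UPR is known to raise, was at 259 and 238 CPM, a ratio of −0.12 (−0.16 to −0.08). Core members thus ranged from no measurable difference to about the fold of Derl1.

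The conjugation group held 3 of the 6 lower members. Aup1 (chr6:83054521-83057808), a membrane protein that brings the conjugating enzyme UBE2G2 to the ligase, fell from 86.6 to 62.1 CPM, a log2 ratio of −0.48 (−0.55 to −0.41). Ube2j1 (chr4:33031416-33052363), a membrane-anchored conjugating enzyme, fell from 75.9 to 59.0 CPM, a ratio of −0.36 (−0.44 to −0.29). Its relative Ube2j2 (chr4:155943831-155959604) fell from 87.3 to 69.5 CPM, a ratio of −0.33 (−0.40 to −0.26). Ube2g2 itself was at −0.29 (−0.36 to −0.21). In the extraction group Ufd1 (chr16:18811779-18835261) fell from 108 to 81.1 CPM, a ratio of −0.41 (−0.47 to −0.34), while Vcp went from 301 to 351 CPM, a ratio of 0.22 (0.19 to 0.26). Nploc4, the partner of Ufd1, was at −0.19 (−0.29 to −0.09). Ubxn6 and Faf2, which encode further p97 cofactors, were at 0.07 (0.00 to 0.14) and −0.07 (−0.14 to 0.00). Ubxn4, an anchor of p97, was at −0.15 (−0.18 to −0.12), and Ubac2 was at −0.12 (−0.29 to 0.05). Ufd1 and Vcp, an adaptor and its ATPase, thus had ratios on opposite sides of 0. Selenok and Selenos, another selenoprotein that recruits p97, were at 0.00 (−0.03 to 0.03) and −0.05 (−0.09 to −0.01). Of the other ligases, Stub1, a cytosolic ligase that works with chaperones, was at −0.31 (−0.35 to −0.28), and Rnf5 and Rnf139, both membrane ligases, were at 0.20 (0.09 to 0.32) and 0.05 (−0.08 to 0.17). Ngly1, which strips glycans from extracted clients, was at −0.03 (−0.14 to 0.07).

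**Figure D2:**
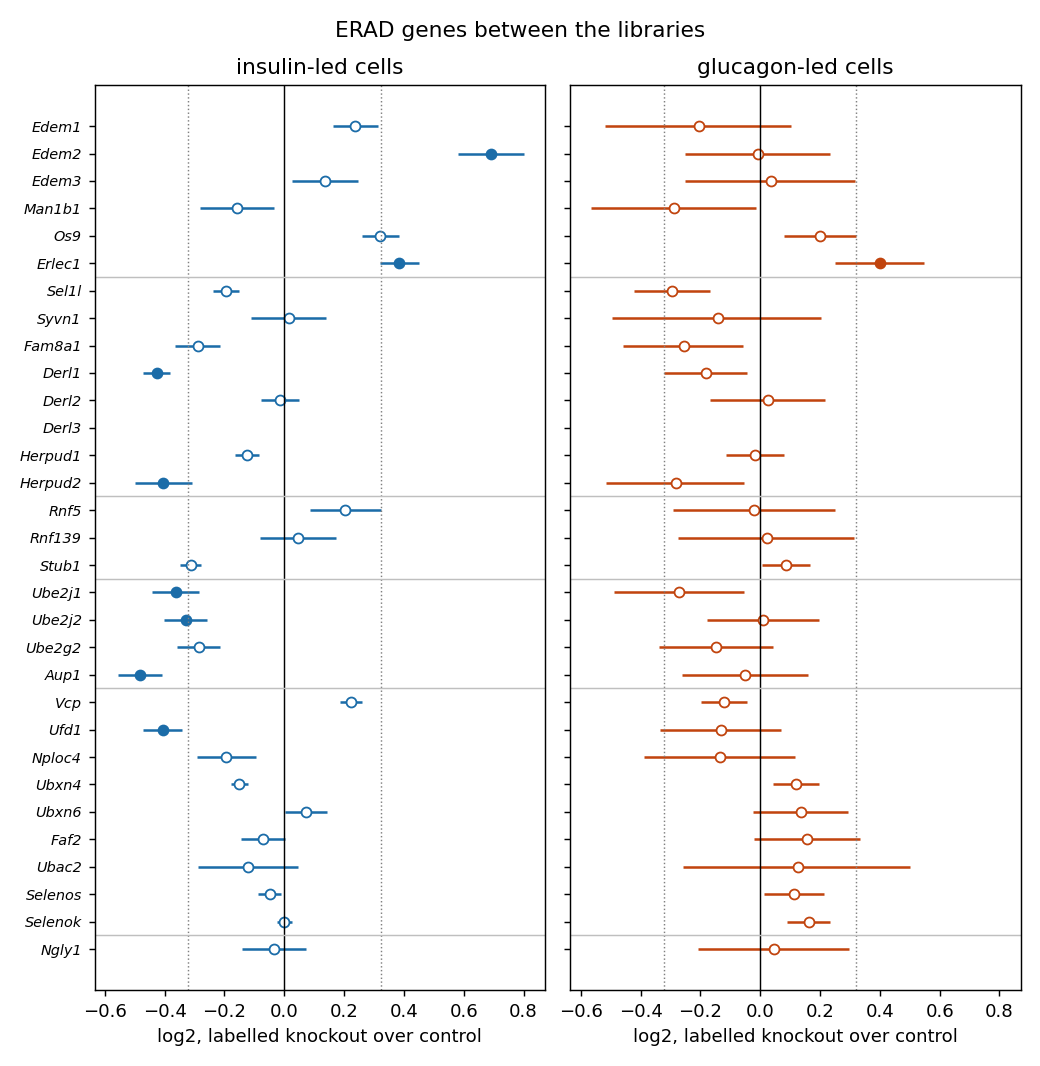
Log2 ratio of the library labelled knockout to the control library for each measured ERAD gene in insulin-led cells (left) and glucagon-led cells (right), with 95% counting intervals. Filled points passed the rule, and dotted lines mark 25%. In insulin-led cells Edem2 and Erlec1 stand right of the lines and 6 genes stand left of them, and in glucagon-led cells 1 gene, Erlec1, stands beyond them.

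In glucagon-led cells 1 member was higher in the library labelled knockout, against 6.25% of measured features, and 0 were lower, against 6.98%. The higher one was again Erlec1, from 73.7 to 97.3 CPM, a log2 ratio of 0.40 (0.25 to 0.55). The members' median was −0.01 (−0.13 to 0.05), against −0.02 over all measured features. Sel1l was at −0.29 (−0.42 to −0.17) and Os9 at 0.20 (0.08 to 0.32). Edem2, the highest ratio of insulin-led cells, was at −0.01 (−0.25 to 0.23). Derl1 was at −0.18 (−0.32 to −0.04) and Aup1 at −0.05 (−0.26 to 0.16). In polypeptide-led cells 0 members were higher, against 4.4% of measured features, and 1 was lower, against 4.64%. That 1 was Ubac2, a membrane protein of the ligase machinery, whose 31 UMIs in control and 8 UMIs in labelled knockout cells gave 17.3 and 7.10 CPM, a log2 ratio of −1.29 (−2.62 to −0.13).

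Other genes of the pathway were read from lists of 42 further ERAD genes, 32 proteasome subunits and 13 regulators of the UPR. Of 41 measured further ERAD genes, 6 (14.6%) were higher and 11 (26.8%) lower in insulin-led cells of the library labelled knockout, against the same 17.6% and 17.4% of measured features, with a median of −0.12 (−0.30 to 0.08). Uggt2 and Uggt1, the glucosyltransferases that sense misfolded glycoproteins, rose by log2 ratios of 0.90 (0.69 to 1.11) and 0.59 (0.53 to 0.66). Dnajb9, a co-chaperone of the lumen, fell from 382 to 233 CPM, and Rhbdd1, a membrane protease, fell from 63.7 to 43.1 CPM. Of 32 measured proteasome subunits 1 (3.12%) was higher, below the 17.6% of all features, and 5 (15.6%) were lower, near the 17.4%, with a median of −0.23 (−0.28 to −0.14), and Psmc4, Psmc2, Psmb4 and Psmb6 had ratios of −0.57, −0.47, −0.44 and −0.42. The higher one, Psmd1, is named after its value was seen. In glucagon-led cells 7 of the 32 subunits (21.9%) were higher, against 6.25% of measured features, and 0 were lower, against 6.98%, with a median of 0.20 (0.13 to 0.28). The insulin-led and glucagon-led medians of this list had opposite signs, and that difference was not tested. Of 13 UPR regulators 1 (7.69%) was higher and 5 (38.5%) lower in insulin-led cells, against 17.6% and 17.4%. Ddit3 fell from 1733 to 1068 CPM, Atf4 from 526 to 332 CPM and Ppp1r15b, a phosphatase subunit of the PERK branch, from 114 to 72.1 CPM, whereas Creb3l2, a membrane-bound transcription factor, rose from 40.0 to 67.0 CPM. Hspa5, the main chaperone of the lumen, fell from 2185 to 1558 CPM, a log2 ratio of −0.49 (−0.50 to −0.47).

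To see how the members ran with insulin RNA, insulin-led cells were split at 4.94%, 10.1% and 21.5% insulin UMIs into 4 bands, the quartiles with both libraries weighted equally. From the lowest to the highest band 7 members were higher in the control library, against 20.6% of measured features, and 2 were lower, against 22.2%. In the library labelled knockout 8 were higher, against 21.4%, and 1 was lower, against 13.9%. The members' medians were 0.11 (−0.04 to 0.21) and 0.08 (−0.02 to 0.27), against −0.02 and 0.04 over all measured features. Without the TMM factors all log2 differences between these bands shift by −0.17 in the control library and −0.12 in the other, which turns the medians to −0.06 and −0.04. Sequencing depth differed between the bands and rose with them in the library labelled knockout: median UMIs per cell were 7930, 9893.5, 10133 and 8792 in control and 3636, 4241, 8733 and 11591 in labelled knockout cells, and its part in these differences was not tested.

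Selenok was higher in the highest insulin band of both libraries. Its level was 384, 530, 693 and 945 CPM over the 4 control bands, a log2 difference of 1.30 (1.24 to 1.36) between the ends, and 423, 541, 640 and 729 CPM in the library labelled knockout, a difference of 0.79 (0.74 to 0.84). It stepped up at each band in both libraries and was steeper in the control one. Ube2j1 went from 63.1 to 88.9 CPM in control, a difference of 0.50 (0.32 to 0.68), and from 47.1 to 69.7 CPM in the other library, a difference of 0.56 (0.41 to 0.72). Aup1 went down from 89.1 to 62.4 CPM, a difference of −0.51 (−0.70 to −0.32), and from 67.7 to 52.0 CPM, a difference of −0.38 (−0.53 to −0.23). These 3 genes were called in the same direction in both libraries, and the share of all features that were was not counted. Selenos, Ube2g2, Ufd1, Herpud1 and Syvn1 were higher and Man1b1 lower in the highest band of the control library alone, and Edem1, Edem2, Erlec1, Rnf5, Rnf139 and Vcp were higher in the highest band of the library labelled knockout alone, by calls whose difference between libraries was not tested.

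**Figure D3:**
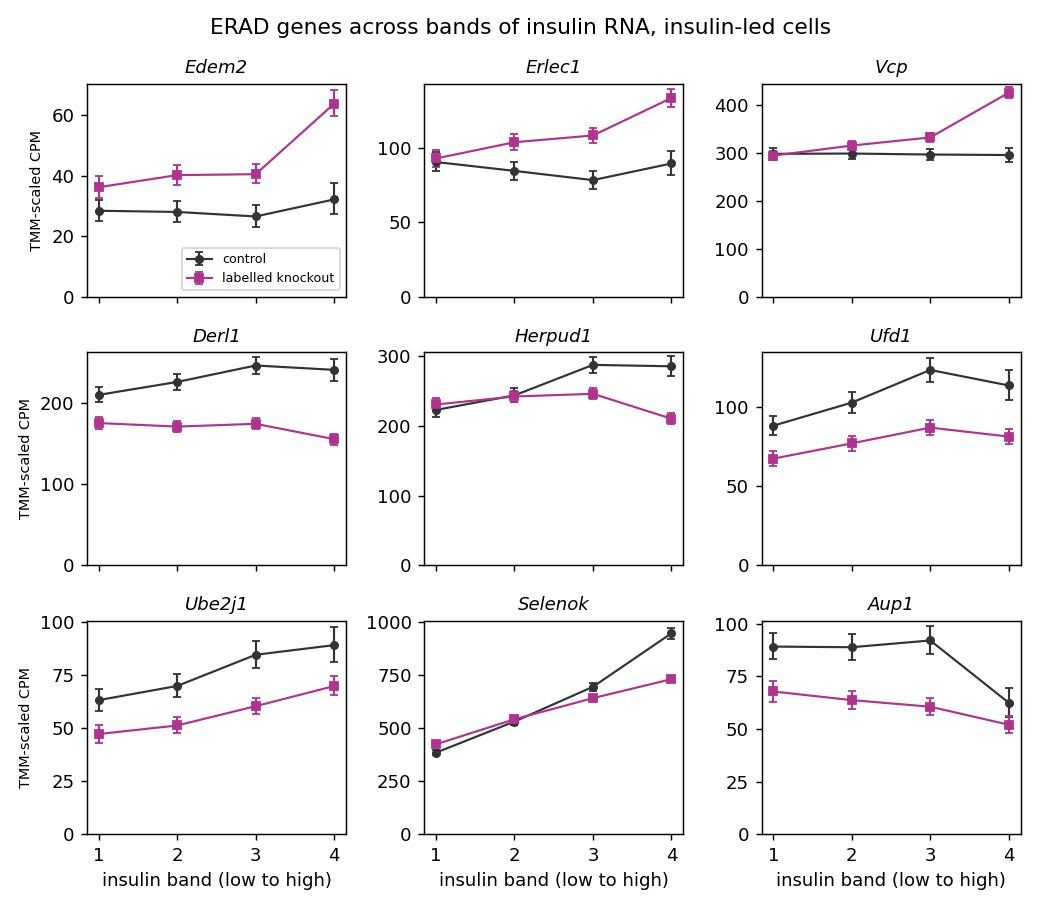
Levels of 9 ERAD genes (TMM-scaled CPM, axes from 0) over 4 bands of insulin RNA in insulin-led cells of the control library (black) and the library labelled knockout (magenta), with 95% counting intervals. Selenok and Ube2j1 step up in both libraries, whereas Vcp parts from the control mainly in the highest band, and the gaps of Edem2 and Erlec1 widen from the lowest band to the highest.

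Within bands, the ratio of the libraries changed for several members. Edem2 gave log2 ratios of 0.35 (0.12 to 0.58), 0.52 (0.30 to 0.74), 0.61 (0.39 to 0.83) and 0.99 (0.75 to 1.24) from the lowest to the highest band. Vcp gave −0.02 (−0.09 to 0.06), 0.08 (0.01 to 0.15), 0.16 (0.10 to 0.23) and 0.53 (0.44 to 0.61), and stood at 295 CPM in control and 425 CPM in labelled knockout cells of the highest band. Herpud1 ran the other way, with 0.05, −0.01, −0.22 and −0.44 (−0.53 to −0.35), and so did Derl1, with −0.26, −0.40, −0.50 and −0.63 (−0.73 to −0.53). The intervals of the lowest and highest bands, which cover counting error only, were apart for each of these 4 genes. How many of all features had such intervals was not counted. The share of all features called between the libraries also rose with the bands, as given below. Ufd1 held nearly the same ratio throughout, at −0.39, −0.42, −0.50 and −0.48. By band, 1, 1, 4 and 4 members were higher, against 9.81%, 14.7%, 19.7% and 26.5% of measured features, and 4, 8, 6 and 11 were lower, against 14.1%, 18.3%, 22.3% and 25.5%. Edem2 was among the higher members in each band, and Ube2j1 and Ufd1 were among the lower members in each.

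Members were next set beside Hspa5, which the UPR raises, in insulin-led cells with at least 5000 UMIs, divided into 3 equal groups (tertiles) by the share of Hspa5. Mean Hspa5 levels were 995 and 3628 CPM in the outer control tertiles and 709 and 2406 CPM in those of the library labelled knockout. In the control library 14 members were higher in the tertile with most Hspa5, against 25.2% of measured features, and 2 were lower, against 19.5%. In the library labelled knockout 6 were higher, against 16.0%, and 2 were lower, against 15.6%. The members' medians were 0.24 (0.07 to 0.43) and 0.17 (0.06 to 0.26), against 0.08 and 0.03 over all measured features. Derl1, Ube2j2, Aup1, Ubxn4 and Selenos were higher in both libraries, and the share of all features that were was not counted. From the lowest to the highest tertile the median mitochondrial share went from 1.52% to 0.669% in control and from 2.01% to 1.43% in the other library, and the median insulin share went from 17.0% to 9.34% and from 20.3% to 9.01%; the part of either in the differences was not tested.

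Ubxn4, a membrane anchor for p97, went through 393, 544 and 666 CPM in the control tertiles and 395, 450 and 585 CPM in the others, log2 differences of 0.76 (0.70 to 0.82) and 0.57 (0.52 to 0.61). Derl1 went through 201, 237 and 259 CPM and through 153, 159 and 207 CPM. Sel1l went through 179, 216 and 263 CPM in control, a difference of 0.56 (0.47 to 0.64), and through 173, 187 and 211 CPM in the library labelled knockout, a difference of 0.29 (0.21 to 0.36) that missed the limit. Herpud1 went through 236, 254 and 278 CPM and through 190, 227 and 288 CPM, the latter a difference of 0.60 (0.53 to 0.67). Syvn1 gave 0.38 (0.12 to 0.64) and 0.16 (−0.04 to 0.37). Ube2j1, with the element printed above, gave 0.25 (0.09 to 0.40) and −0.06 (−0.19 to 0.08). Derl3, under the 10 CPM rule, went from 2.36 to 6.12 CPM and from 1.16 to 4.98 CPM between the outer tertiles, from 22 and 60 UMIs and from 16 and 89 UMIs. Vcp, with the same element, went through 331, 303 and 275 CPM, a difference of −0.27 (−0.34 to −0.19), and through 401, 382 and 311 CPM, a difference of −0.37 (−0.42 to −0.32), of which the latter passed the limit. The 2 genes with the element thus had differences on opposite sides of 0 in control and both below 0 in the other library, where the interval of Ube2j1 included 0.

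The same division by Ddit3, the CHOP gene, split the members into those that ran with it and those that ran against it. The tertiles were cut in each library by itself. Mean Ddit3 levels were 793 and 2966 CPM in the outer control tertiles and 139 and 2237 CPM in those of the library labelled knockout. On the log scale the outer tertiles thus lay further apart in the latter. In the control library 16 members were higher in the tertile with most Ddit3, against 31.1% of measured features, and 5 were lower, against 21.6%. In the library labelled knockout 14 were higher, against 35.5%, and 5 lower, against 28.9%. Of these, 14 members were higher in both, 4 were lower in both, and 0 were called in opposite directions. The medians were 0.35 (−0.01 to 0.43) and 0.14 (−0.14 to 0.54), against 0.11 and 0.08 over all measured features. Across the 30 measured members the differences of the libraries had a Pearson r of 0.90, compared with 0.76 for the Hspa5 tertiles. For all features neither the share called in both libraries nor this correlation was computed. The agreement can therefore not be read as particular to the members.

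Ufd1 had the largest rise among measured members, through 77.3, 113 and 140 CPM in control, a log2 difference of 0.85 (0.72 to 0.98), and through 43.5, 88.3 and 113 CPM in the library labelled knockout, a difference of 1.37, with an interval whose lower end was above the control's upper end of 0.98. Ubxn4 rose in both libraries too, with differences of 0.62 (0.56 to 0.68) and 1.05 (1.00 to 1.10). The genes lower in both libraries were Vcp, Edem2, Erlec1 and Rnf5. Vcp went through 346, 285 and 264 CPM in control and through 535, 297 and 252 CPM in the other library, differences of −0.39 (−0.47 to −0.31) and −1.09 (−1.15 to −1.03). Ubxn6 was lower in control alone, at −0.41 (−0.56 to −0.26), as it was by Hspa5, at −0.46 (−0.61 to −0.32). Edem2 went through 33.1, 27.6 and 25.8 CPM and through 69.7, 37.7 and 35.0 CPM. For Vcp and Edem2 the cells with least Ddit3 in the library labelled knockout stood apart from the other 5 tertiles. The median mitochondrial share of those cells was 4.42%, against 0.98% in the tertile with most Ddit3, and in control it was 2.08% against 0.62%. Their median insulin share was 22.03% against 11.76%, and their median depth was 14581 against 10272 UMIs. The insulin shares of the outer control tertiles lay closer together, and depth there was 13030.5 against 10041.5 UMIs. Vcp and Edem2 were also higher in the highest insulin band of the library labelled knockout. The wider span of Ddit3 in the library labelled knockout, given above, makes its differences unlike those of control. The part of this span, mitochondrial share, insulin share and depth in the differences was not tested. Of the recognition genes, 6 of 6 in control and 5 of 6 in the other library had differences below 0. The conjugation genes were above 0 in 4 of 4 and 4 of 4. Among all measured features, 5049 were above and 3567 below 0 of 8616 in control. In the other library 4886 were above and 4036 below 0 of 8922.

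**Figure D4:**
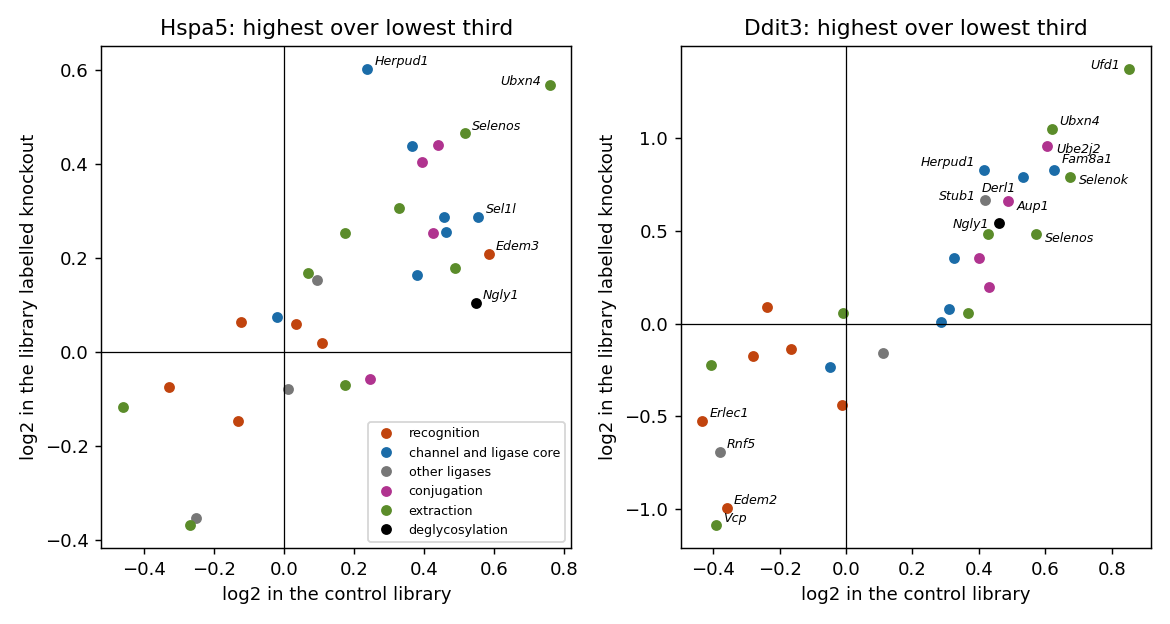
Log2 difference between the tertiles of insulin-led cells with most and least Hspa5 (left) or Ddit3 (right), control library on the horizontal axis and library labelled knockout on the vertical axis, with 1 point for each of the 30 measured ERAD genes coloured by role. Recognition genes (orange) lie mostly at or below 0 on the Ddit3 axes, Ufd1 has the highest value on both of them, and Vcp has the lowest on the vertical one.

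Since Ddit3 itself differed between the libraries, the library ratio was taken again within 4 bands of the Ddit3 share and averaged, a division chosen after the data were seen. It then passed the 25% limit upward for 1 member, against 12.5% of measured features, and downward for 0, against 10.0%. The remaining one was Edem2, at 0.44. Herpud2, at −0.32, lay just inside the limit. Ufd1 moved from −0.41 to −0.10, Derl1 from −0.43 to −0.20, Aup1 from −0.48 to −0.26, Ube2j1 from −0.36 to −0.23 and Ube2j2 from −0.33 to −0.11. Erlec1 moved from 0.38 to 0.23 and Vcp from 0.22 to −0.03. Not all moves were toward 0. Selenok, Selenos, Ngly1 and Ubxn4 had ratios near or below 0 in all insulin-led cells and were then at 0.20, 0.13, 0.11 and 0.09. Each band had equal weight in these means, which carry no interval. The lowest Ddit3 band held 453 control cells with a median of 3100 UMIs and 2344 labelled knockout cells with a median of 7422 UMIs. The part of such differences in the moves was not tested. The members' median was −0.01. Averaged within the 4 insulin bands instead, 2 members were past that limit upward, against 17.3%, and 8 downward, against 18.4%, with a median of −0.12.

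**Figure D5:**
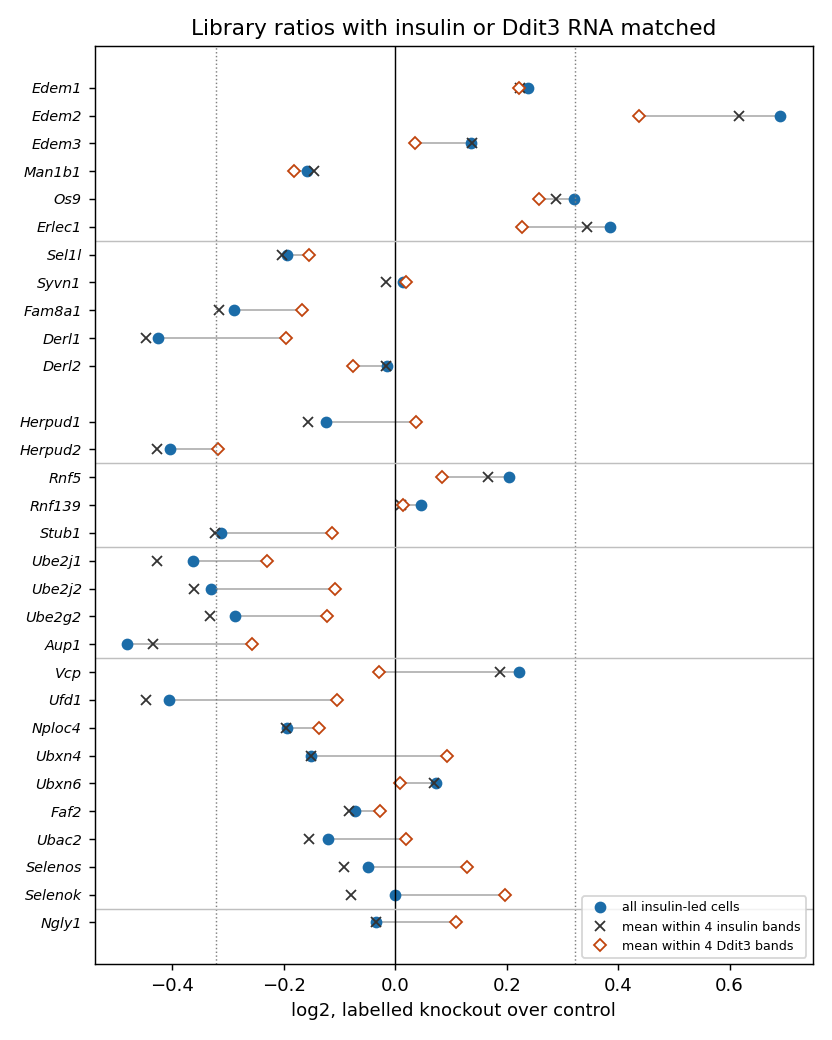
Log2 ratio of the library labelled knockout to the control library in all insulin-led cells (filled circles), as the mean within 4 insulin bands (crosses) and as the mean within 4 Ddit3 bands (open diamonds), for each measured ERAD gene. Dotted lines mark 25%. The diamonds of Ufd1, Derl1, Aup1 and Ube2j2 lie nearer to 0 than the circles, and those of Selenok, Selenos and Ubxn4 lie right of 0 and of their circles. Only the diamond of Edem2 lies beyond the lines.

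The summed level of the 31 genes was 4158 CPM in control and 3916 CPM in labelled knockout insulin-led cells. It was 2895 and 2936 CPM in glucagon-led cells and 3545 and 3598 CPM in polypeptide-led cells. Over the insulin bands it ran through 3706, 4022, 4368 and 4488 CPM in control and 3514, 3716, 3931 and 4061 CPM in the library labelled knockout, so each control band lay above its counterpart. Much of the rise in control was Selenok, which alone went from 384 to 945 CPM, and the interval of the members' median difference included 0. Over the Ddit3 bands it ran through 3087, 3684, 4141 and 4625 CPM in control and 3321, 3729, 4198 and 4494 CPM in the other library, where the control value was below its counterpart in the first 3 bands and above it in the last.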

How the data were processed

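Islet cells of 2 libraries, 1 per genotype, were compared. The authors deposited unnormalised UMI counts for each gene in each barcode; the file headers name Cell Ranger 6.0.0. The submitters' processing notes name mm10, R 4.1.1 and Seurat 4.1.0; how barcodes were called cells is not given in the sources used here. The members and gene lists were chosen with earlier results of these data known. Cells with at least 500 genes and at most 15% mitochondrial UMIs were summed by leading hormone and library. Each sum was divided by its UMIs outside Ins1, Ins2, Gcg, Sst, Ppy, Pyy and Iapp and by a TMM factor (log-ratio trim 0.3, abundance trim 0.05) against the insulin-led control sum. The factors were the same as those of edgeR 4.0.16 in R 4.3.3. Ratios carry exact conditional 95% intervals and medians carry binomial order intervals. A difference was called at a mean of 10 CPM, 25% and an interval excluding 0. All 31 members are named, with full values for those called between libraries or in both sets of insulin bands; from each pathway list up to 4 genes with the largest ratios are named. Levels are not compared between genes. The 2% floor on the leading hormone, set above the median insulin share of glucagon-led cells (0.281% and 0.977%), the tertiles and the Ddit3 bands were set after the counts were seen. Scripts ran in Python 3.11.15 with scipy 1.17.1, numpy 2.4.6, matplotlib 3.10.9 and pandas 2.3.3 and were tested on simulated data. Positions come from GENCODE mouse release 21 on mm10, with 31 of 31 members matched by identifier.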

Additional observations from a re-analysis of the deposited data

Results flagged for a closer look

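In 4 members the ratio of the library labelled knockout to the control library lay below 0 in one hormone class and above 0 in the other, with both counting intervals clear of 0. Vcp, the p97 ATPase, was at 0.22 in insulin-led and −0.12 in glucagon-led cells. Stub1, a chaperone-linked ligase, was at −0.31 and 0.09, Ubxn4, an anchor of p97, at −0.15 and 0.12, and Selenos, a recruiter of p97, at −0.049 and 0.11. None of these values reached the 25% limit. With 1 library per genotype the difference between the classes was not tested. How many of all features met the same rule was not counted, so the flag is not a result particular to ERAD genes.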

How the results depend on the processing

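No paired analysis was possible because each genotype has 1 library and the labels carry no replicate numbers, so no library could be left out either. Of the values that answer a comparison, 74 stayed within the main interval or within 1.5 times the main count and 15 moved. For single genes these numbers were 122 and 25, and 0 of the single-gene values changed sign. Both band medians changed sign without TMM. With at least 5000 UMIs per cell the labelled knockout band median went to −0.0041 and the glucagon-led median to 0.0081. The main intervals of these medians included 0. With each cell weighted equally, 12 members were lower in insulin-led cells, against 23.4% of features, and the members' median was −0.25. In glucagon-led cells 1 member was then lower, against 9.98%. The band medians were 0.30 in control and 0.31 in the library labelled knockout. Erlec1 was then at 0.24 in insulin-led cells, under the fold. At 1.5-fold, 1 member (Edem2) was higher and 0 lower in insulin-led cells, against 8.35% and 3.86% of features. In glucagon-led cells 0 were higher, against 0.895%. Without TMM the band medians were −0.059 and −0.045. With at least 5000 UMIs per cell, 1 member was lower in glucagon-led cells, against 8.07% of features, and Ube2j1 and Ube2j2 were no longer called in insulin-led cells. With the leading hormone at least 10 times the next, 4 were lower in glucagon-led cells, against 8.2% of features. Added after the data were seen, the gate without the 2% floor left 1 higher member, against 13.8% of features. Matching on Ddit3, also added then, left 1 higher, against 12.5%, and 0 lower, against 10.0%. Over the alternatives, Edem2 ran from 0.44 to 0.77, Derl1 from −0.59 to −0.20, Aup1 from −0.50 to −0.26, Herpud2 from −0.51 to −0.32 and Ufd1 from −0.50 to −0.10 on the log2 scale. The cause of these moves was not tested. Few UMIs limit Ubac2 in polypeptide-led cells and Derl3 in glucagon-led cells.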
